A study of Mus musculus with 4 samples.

Results

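The 8 genes described here encode the troponin complex of striated muscle: the slow skeletal, fast skeletal and cardiac forms of troponin I (Tnni1, Tnni2 and Tnni3), of troponin T (Tnnt1, Tnnt3 and Tnnt2) and the forms of troponin C (Tnnc1, shared by slow muscle and heart, and Tnnc2 of fast muscle). They were taken by symbol from a table of 17485 genes, and all 8 were found. The family was selected on the log2 ratios of Klf9 knockout over wild-type hearts, in which Tnni1 ranked 1 of 12135 genes by fitted difference. The differences of its members between the groups are therefore given as a description. Calls of the fit over all genes are counted for the members as a description, and nothing rests on them. The study sequenced RNA of hearts from wild-type (WT) and Klf9 knockout (Klf9 KO) mice, with 2 libraries per group, to ask how Klf9, a zinc finger transcription factor, bears on the mitochondria of the heart. Every library was labelled as heart tissue of a male, and the mice were 8 weeks old and had food and drink freely. Strain, the deleted part of Klf9, whether the knockout spans all tissues, and whether animals were pooled are not given in these sources. They also do not say whether 2 libraries of one genotype stand for 2 mice, so spreads and p-values cover only differences between these libraries, which may be technical.

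Troponin sits on the actin thin filament and makes contraction depend on calcium. Troponin C binds calcium, troponin I holds the filament switched off when calcium is low, and troponin T ties the complex to tropomyosin. Each subunit has several genes, and hearts are known to carry the slow skeletal troponin I before and around birth and to replace it with the cardiac form afterwards, while cardiac troponin T is the main troponin T of the heart muscle throughout.

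The knockout label was checked first on Klf9 itself, which stood at 74.9 and 58.8 in the WT libraries and at 2.66 and 1.99 in the Klf9 KO libraries. Library Klf9 KO-2 went against its male label: the Y-linked gene Kdm5d stood at 0.01 there and between 3.42 and 4.01 in the other libraries, and Ddx3y, Eif2s3y and Uty were lowest there as well (0.01, 0.73 and 0.58). Values are thus given for each library, and the counts over all genes and some of the list counts also without Klf9 KO-2. Levels per library were recovered from the deposited ratios in steps of 0.01 and behave across genes as expression per length of transcript. Levels of different genes are comparable only roughly: in WT-1 the reads implied by the authors' p-values were 53828 for Tnnt2 and 27220 for Tnnc1, against 79716 and 35989 from level and length, and Tnni3 could not be checked in this way. A level of 0.01 is the smallest step and can stand for no reads. In WT-1 a level of 1 was estimated to stand for 11.9 reads for the shortest troponin transcript (Tnnc2) and for 19.2 reads for the longest (Tnnt2).

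The cardiac forms made up nearly all troponin RNA of WT hearts, and a single non-cardiac form, Tnni1, joined them at a comparable order of magnitude in Klf9 KO hearts. By mean level in WT, the order ran from Tnnt2 through Tnni3, Tnnc1, Tnnt1, Tnni2, Tnnt3 and Tnnc2 to Tnni1. The ranges of the 2 WT libraries overlapped between Tnnt2 and Tnni3, between Tnni2 and Tnnt3, and between Tnnc2 and Tnni1. These neighbours in the order thus did not differ beyond their spread. The WT gap between Tnni3 and Tnnc1 is about the size of the mismatch in implied reads, so their order is not taken as resolved either. In Klf9 KO the order was Tnnt2, Tnnc1, Tnni3, Tnni1, Tnnt1, Tnni2, Tnnt3 and Tnnc2. The ranges of neighbours in it did not overlap, but the gaps between Tnnt2, Tnnc1 and Tnni3 are about the size of the mismatch in implied reads, so their order is not taken as resolved. There Tnni1 ranked 63 and 37 among all 17485 genes in Klf9 KO-1 and Klf9 KO-2, against 13883 and 15573 in WT-1 and WT-2.

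**Figure D1:**
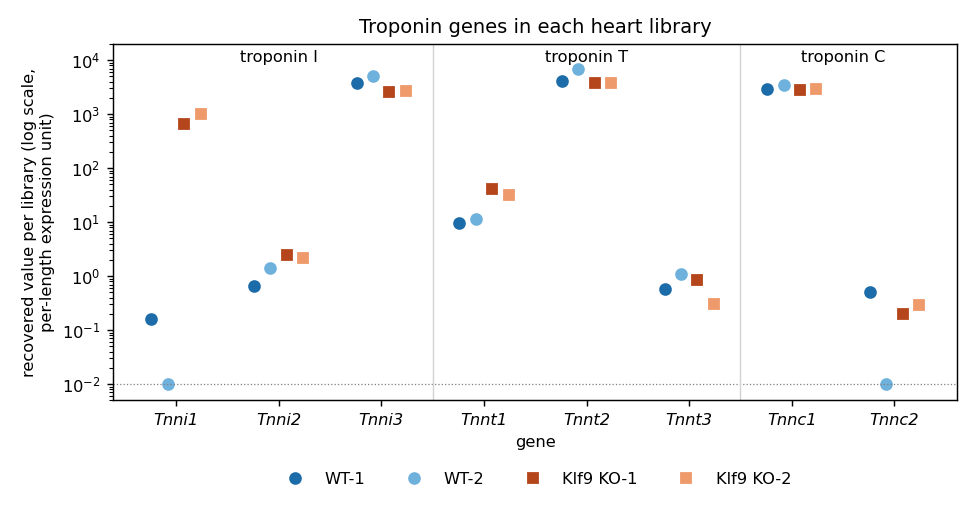
Level of each troponin gene in each library on a log axis, with circles for WT and squares for Klf9 KO libraries and a dotted line at the smallest step of 0.01. Tnni1 moves from 0.16 and 0.01 in WT to 656 and 994 in Klf9 KO, while the cardiac forms Tnni3, Tnnt2 and Tnnc1 lie between 2625 and 6849 in all 4 libraries.

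Tnni1 (Entrez 21952), the slow skeletal troponin I, stood at 0.16 in WT-1, 0.01 in WT-2, 656 in Klf9 KO-1 and 994 in Klf9 KO-2. The WT libraries were thus at or near the smallest step and both Klf9 KO libraries lay far above them. The level in WT-1 corresponded to an estimated 2.96 reads. The deposited log2 ratios were 12 and 12.60 against WT-1, and 16.00 and 16.60 against WT-2, where the denominator is the smallest step. Against WT-1 the ratio was 4100 for Klf9 KO-1, with an exact Poisson 95% interval from 1386 to 19643 if the WT-1 level is read as 3 reads; this interval covers counting error only. On the log2(value + 1) scale the difference was 9.54 ± 0.23 (SE, n = 2 per group), and with a pseudocount of 0.1 it was 12.22, so that its size above the WT level is not well fixed. The Klf9 KO libraries themselves differed by 0.60 on that scale, a gap that 1.38% of the 12135 tested genes reached between these libraries.

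Tnni3 (Entrez 21954), the cardiac troponin I that carries an extra amino-terminal stretch phosphorylated in response to adrenergic signalling, stood at 3783 and 5102 in WT and at 2625 and 2672 in Klf9 KO. Both Klf9 KO libraries lay below both WT libraries. The means were 4443 ± 933 and 2648 ± 33.0 (SD, n = 2 each), a ratio of 0.596, and the 4 pairwise log2 ratios ran from -0.96 to -0.50. The WT libraries differed from each other by 0.43 on the log2 scale, against 0.03 between the Klf9 KO libraries, so the size of the difference depends on which WT library is taken as reference.

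Tnni2 (Entrez 21953), the fast skeletal troponin I, stayed low: 0.65 and 1.40 in WT, and 2.51 and 2.21 in Klf9 KO. Both Klf9 KO libraries were above both WT libraries, with pairwise log2 ratios from 0.66 to 1.95. In WT-1 its level was estimated at 8.41 reads from level and length and at 9.74 reads from the authors' p-value, so its ratios carry a wide counting error.

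Summed over its 3 genes, troponin I stood at 3784 and 5104 in WT and at 3283 and 3668 in Klf9 KO. Tnni1 supplied 0.00423% and 0.000196% of that sum in the WT libraries, 20.0% in Klf9 KO-1 and 27.1% in Klf9 KO-2. These shares are as rough as the comparison of levels between genes. The mean share was 23.5% ± 5.03 (SD, n = 2) in Klf9 KO, and that of Tnni3 was 76.4% ± 5.02 there against 99.98% ± 0.00438 in WT. The ratio of Tnni1 to Tnni3 was 0.250 and 0.372 in the Klf9 KO libraries. Both Klf9 KO sums were below both WT sums, that of Klf9 KO-2 only slightly below that of WT-1.

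**Figure D2:**
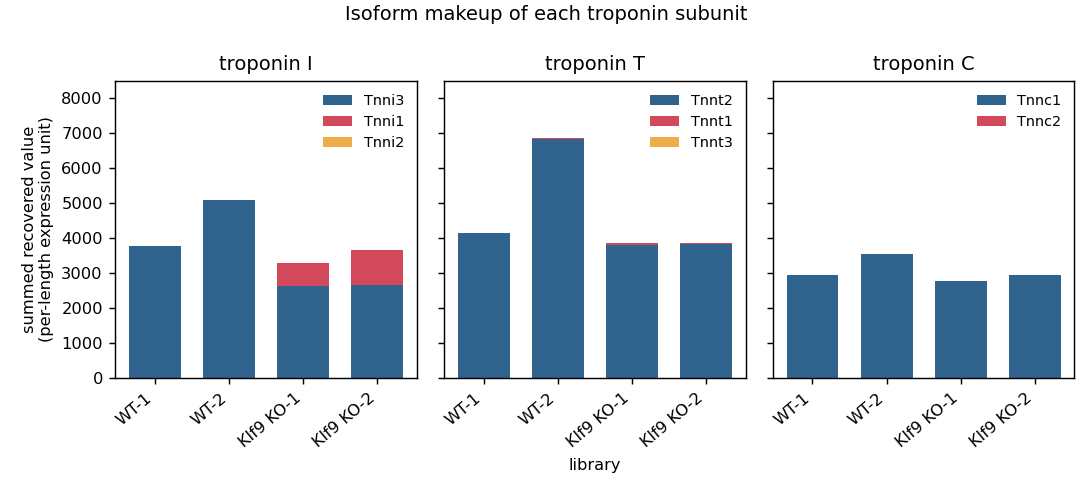
Summed level of each troponin subunit in each library, stacked by gene, on a linear axis from 0. Tnni1 is visible as 20.0% and 27.1% of troponin I in the Klf9 KO libraries, while troponin T and troponin C consist almost wholly of Tnnt2 and Tnnc1 in all 4.

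Among the troponin T genes, Tnnt1 (Entrez 21955), the slow skeletal form, stood at 9.71 and 11.2 in WT and at 42.0 and 31.5 in Klf9 KO. Both Klf9 KO libraries were well above both WT libraries. Its means were 10.5 ± 1.07 and 36.8 ± 7.42 (SD, n = 2 each), a ratio of 3.51, and its pairwise log2 ratios ran from 1.49 to 2.11. An estimated 167 reads stood behind its level in WT-1. Its share of troponin T was 0.199% ± 0.0496 in WT and 0.952% ± 0.192 in Klf9 KO, so the slow form remained a minor part of this subunit in both groups.

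Tnnt2 (Entrez 21956), cardiac troponin T, stood at 4143 and 6849 in WT and at 3821 and 3833 in Klf9 KO. Both Klf9 KO libraries were lower than both WT libraries, by log2 ratios of -0.12 and -0.11 against WT-1 and of -0.84 and -0.84 against WT-2. The spread between the WT libraries (0.73 on the log2 scale, a gap that 5.95% of tested genes reached) was larger than the difference of either Klf9 KO library from WT-1. Tnnt3 (Entrez 21957), the fast skeletal form, stood at 0.57 and 1.09 in WT and at 0.84 and 0.31 in Klf9 KO, and the groups overlapped. Splice forms of troponin T, which also change as the heart matures, cannot be seen in a table with 1 row per gene.

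Tnnc1 (Entrez 21924), the only troponin C of any size in these hearts, stood at 2941 and 3542 in WT and at 2782 and 2960 in Klf9 KO. The groups overlapped, and the pairwise log2 ratios ran from -0.35 to 0.01. In the authors' deposited table the p-value of a Poisson model was 1.52e-10 for Klf9 KO-1 against WT-1, at a log2 ratio of -0.08, and 0.475 for Klf9 KO-2 against the same library. Tnnc2 (Entrez 21925), of fast muscle, stood at 0.50 and 0.01 in WT and at 0.20 and 0.29 in Klf9 KO, near the limit of what these libraries could count. Troponin C thus had no counterpart in these levels to the appearance of Tnni1.

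**Figure D3:**
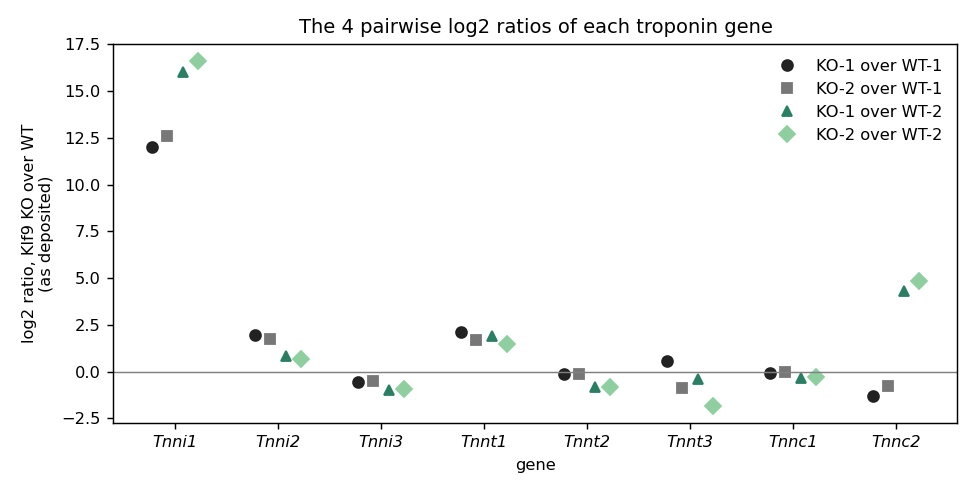
The 4 deposited log2 ratios of Klf9 KO over WT libraries for each troponin gene. All 4 lie above 0 for Tnni1, Tnni2 and Tnnt1 and below 0 for Tnni3 and Tnnt2, whereas Tnnt3, Tnnc1 and Tnnc2 have ratios on both sides.

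Of the 8 troponin genes, 6 reached a level of at least 1 in at least 2 libraries and entered the fit, and Tnnt3 and Tnnc2 did not. Tnni1 entered only through the Klf9 KO libraries. In the limma fit over all 12135 genes (Benjamini-Hochberg adjusted p below 0.05), 3 members were higher (Tnni1, Tnni2 and Tnnt1) and 1 was lower (Tnni3), beside 27.7% of all tested genes higher and 17.0% lower. Nothing is read from these member counts, since the same contrast chose the family. The groups did not overlap in 3 tested members higher and 2 lower, beside 45.2% and 30.2% of all tested genes. Over all genes 3367 were higher and 2061 lower. These counts were 1859 and 1100 without Klf9 KO-2, 2195 and 1247 without Klf9 KO-1, and 4327 and 3261 without WT-1. Scaling the libraries by RLE (the median of ratios) gave 2617 and 2618, which moved the share of higher calls from 62% to 50.0%, and moved the median difference of all tested genes from 0.12 to -0.02. Relative to the median of 0.12, the differences were 9.43 for Tnni1, 1.59 for Tnnt1, 0.64 for Tnni2, -0.29 for Tnnc1, -0.59 for Tnnt2 and -0.85 for Tnni3, and none changed sign after RLE or upper quartile scaling. The call of Tnni3 lay close to the threshold: it was lost with non-robust moderation, without the filter on low values, and without either Klf9 KO library in turn, while its difference was -0.73 with all libraries, -0.72 without Klf9 KO-1 and -0.74 without Klf9 KO-2. The call of Tnni2 was lost without the filter. Tnnt2 was called lower without WT-1, where its difference was -0.84 in place of -0.48. In every fit that leaves out a library, 1 group has a single library, which is assumed to vary like the other group, and the spread comes from that other group's pair alone. A call lost there does not mean a smaller difference. Counts over all genes moved in these fits and after RLE scaling. List counts given below for them are therefore not to be set beside the 27.7% and 17.0%.

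The ratio of summed troponin T to troponin C was 1.41 in WT-1 and 1.94 in WT-2, and 1.39 and 1.31 in the Klf9 KO libraries, so the WT libraries differed more from each other than WT-1 did from either Klf9 KO library. That of troponin I to troponin C was 1.29 and 1.44 in WT and 1.18 and 1.24 in Klf9 KO, so here both Klf9 KO libraries were lower. All 8 genes together held 2.55% and 3.17% of the summed values of all genes in WT, and 2.43% and 2.5% in Klf9 KO.

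Troponin I and troponin T genes lie in pairs in the mouse genome. In the RefSeq order of protein-coding genes, Tnni1 and Tnnt2 share a stretch of chromosome 1 with Lad1 between them, Tnnt1 and Tnni3 are direct neighbours on chromosome 7, and Tnni2 and Tnnt3 lie elsewhere on chromosome 7 with Lsp1 between them.

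The genes flanking Tnni1 were also higher in Klf9 KO hearts. Phlda3 rose from 6.24 and 6.03 to 20.3 and 28.2 (log2 difference 1.80 ± 0.20, SE; limma adjusted p = 0.00019), Csrp1, a LIM protein of smooth muscle, from 22.7 and 26.1 to 64.0 and 88.7, and Lad1 from 0.80 and 0.71 to 4.82 and 5.30. Lad1 reached a level of 1 only in the Klf9 KO libraries and entered the fit only through them. Pkp1 and Igfn1, beyond Tnnt2, stood at 0.02 or less in all 4 libraries. At the second locus Ppp1r12c, next to Tnnt1, did not pass (29.3 and 26.2 against 29.3 and 29.6), and Dnaaf3, next to Tnni3, fell by 0.66 ± 0.20 on the log2 scale. At the third locus Lsp1 rose (32.9 and 29.8 against 88.6 and 72.0) and Ctsd, a lysosomal protease, fell by 1.72 ± 0.22 on the log2 scale. Igf2, an imprinted growth factor gene beyond Tnnt3, rose from 8.87 and 4.65 to 311 and 399.

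Over all 8 troponin genes there were 22 such neighbours, of which 18 were tested. Of these, 7 rose, 3 fell and 8 were not called, beside 27.7% of all tested genes higher and 17.0% lower. The median difference of the neighbours was 0.44 beside 0.12 for all tested genes. The part that fell was close to that of all tested genes, and no pattern is read from these counts. Ube2c, next to Tnnc2, is itself a cell cycle gene and rose from 4.33 and 5.44 to 36.3 and 57.7. Dnaaf3 and Sema3g, a neighbour of Tnnc1, no longer passed without Klf9 KO-1 or without Klf9 KO-2, where their log2 differences lay between -0.68 and -0.60, which left 1 lower neighbour in each case.

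**Figure D4:**
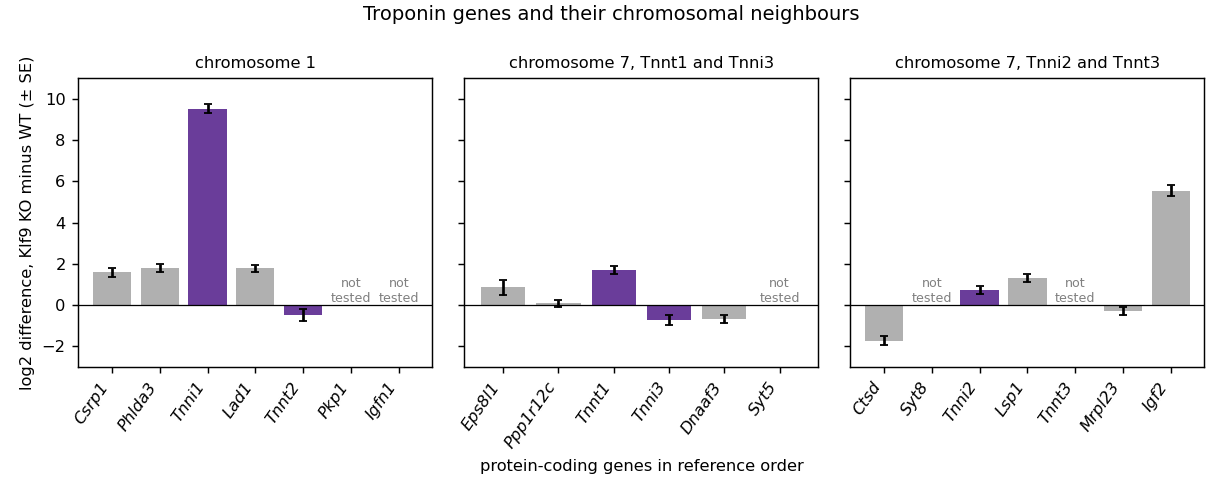
Fitted log2 difference with its SE for troponin genes (purple) and neighbouring protein-coding genes (grey) in RefSeq order at 3 loci. All 3 tested genes around Tnni1 are higher in Klf9 KO, by 1.59 to 1.80, while Tnnt2 in the same stretch is at -0.48. Of these, Lad1, like Tnni1, entered the fit only through the Klf9 KO libraries.

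The promoters of the paired genes at the first and second loci are shown because they belong to the slow and cardiac forms described above. Each is the stretch of 250 bases before a transcription start of RefSeq in build GRCm38.p6, 5′ to 3′ on the gene's own strand: Tnni1 at chr1:135799171-135799420 (the first of its 2 listed starts, plus strand), Tnnt2 at chr1:135836084-135836333 (the first of its 2 listed starts, plus strand), Tnnt1 at chr7:4515976-4516225 (minus strand) and Tnni3 at chr7:4522529-4522778 (minus strand). Capitals mark matches, on either strand, to the motifs searched.
Tnni1: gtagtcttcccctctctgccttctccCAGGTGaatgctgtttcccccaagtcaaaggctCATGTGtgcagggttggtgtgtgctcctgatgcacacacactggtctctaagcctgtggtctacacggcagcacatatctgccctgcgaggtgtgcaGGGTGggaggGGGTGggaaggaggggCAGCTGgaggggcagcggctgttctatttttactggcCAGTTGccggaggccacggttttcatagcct
Tnnt2: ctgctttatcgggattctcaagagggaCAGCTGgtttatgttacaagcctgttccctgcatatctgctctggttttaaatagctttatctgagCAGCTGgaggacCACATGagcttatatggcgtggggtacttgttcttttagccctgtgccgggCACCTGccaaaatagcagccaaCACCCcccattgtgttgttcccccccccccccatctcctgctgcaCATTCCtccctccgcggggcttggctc
Tnnt1: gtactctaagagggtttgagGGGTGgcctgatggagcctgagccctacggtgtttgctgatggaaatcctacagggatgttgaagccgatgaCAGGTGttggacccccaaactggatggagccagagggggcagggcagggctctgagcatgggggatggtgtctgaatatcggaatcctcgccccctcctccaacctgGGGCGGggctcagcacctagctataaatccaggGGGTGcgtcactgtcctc
Tnni3: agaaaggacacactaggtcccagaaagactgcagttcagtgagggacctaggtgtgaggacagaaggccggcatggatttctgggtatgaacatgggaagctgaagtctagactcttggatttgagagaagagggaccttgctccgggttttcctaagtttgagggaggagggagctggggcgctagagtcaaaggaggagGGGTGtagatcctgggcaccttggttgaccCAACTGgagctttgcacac

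The motifs searched were GGGCGG (the GC box bound by Sp and Krüppel-like factors), CACCC (also known from Krüppel-like factor sites), CATTCC (the core of the M-CAT element), CANNTG (the E box), the MEF2 site and the CArG box. Of the 8 troponin genes, 6 had at least 1 promoter in the RefSeq table. GGGCGG was found in the window of Tnnt1 at positions -51 to -46 from the start and not in those of Tnni1, Tnnt2 or Tnni3, beside 32.7% of all 32851 promoter windows of the same length. CACCC was found in all 4 windows, beside 52.0% of all windows, with both of the matches of Tnni1 between positions -94 and -80. CANNTG was found in all 4 windows as well, beside 66.2%, and CATTCC in that of Tnnt2 at positions -27 to -22, beside 12.6%. The MEF2 site and the CArG box had no match in these 4 windows, beside 2.92% and 1.47% of all windows. The window of the second listed start of Tnni1 also held CACCC and CANNTG, but with its CACCC matches between positions -184 and -170. That of the second listed start of Tnnt2 held 1 CANNTG match and neither CACCC nor CATTCC. The positions for Tnni1 and the matches of Tnnt2 thus depend on the start taken. A match describes the letters of the reference only, and no binding was measured.

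Genes that build the thin filament around troponin went in both directions. Of 18 partners, 17 were tested, 2 rose, 4 fell and 11 were not called, beside 27.7% of all tested genes higher and 17.0% lower. The median difference of the partners was -0.19 beside 0.12 for all tested genes. Tpm2 and Tpm3, tropomyosins of skeletal and slow muscle, rose (16.8 and 16.1 against 47.6 and 53.9 for Tpm2; 57.7 and 55.5 against 92.6 and 118 for Tpm3), while Tpm1, the main tropomyosin of the heart, did not pass (5774 and 7705 against 5182 and 4351). Acta1, skeletal alpha actin, fell from 814 and 313 to 45.2 and 70.9, and Lmod2, which lengthens thin filaments, from 222 and 217 to 92.3 and 86.5. Cardiac actin, Actc1, did not pass (1345 and 1236 against 1108 and 1033). Tpm3 no longer passed without Klf9 KO-2 (log2 difference 0.70, against 0.88 with all libraries), which left 1 partner that rose and 3 that fell. Tmod4 and Lmod3, which cap or lengthen thin filaments, were the other partners that fell (7.55 and 12.6 against 3.56 and 1.68 for Tmod4; 45.5 and 53.7 against 30.7 and 26.8 for Lmod3), and Lmod3 did not pass without Klf9 KO-1 or without Klf9 KO-2 (log2 differences -0.86 and -0.67, against -0.76 with all libraries). Tpm1 passed as lower without WT-1.

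**Figure D5:**
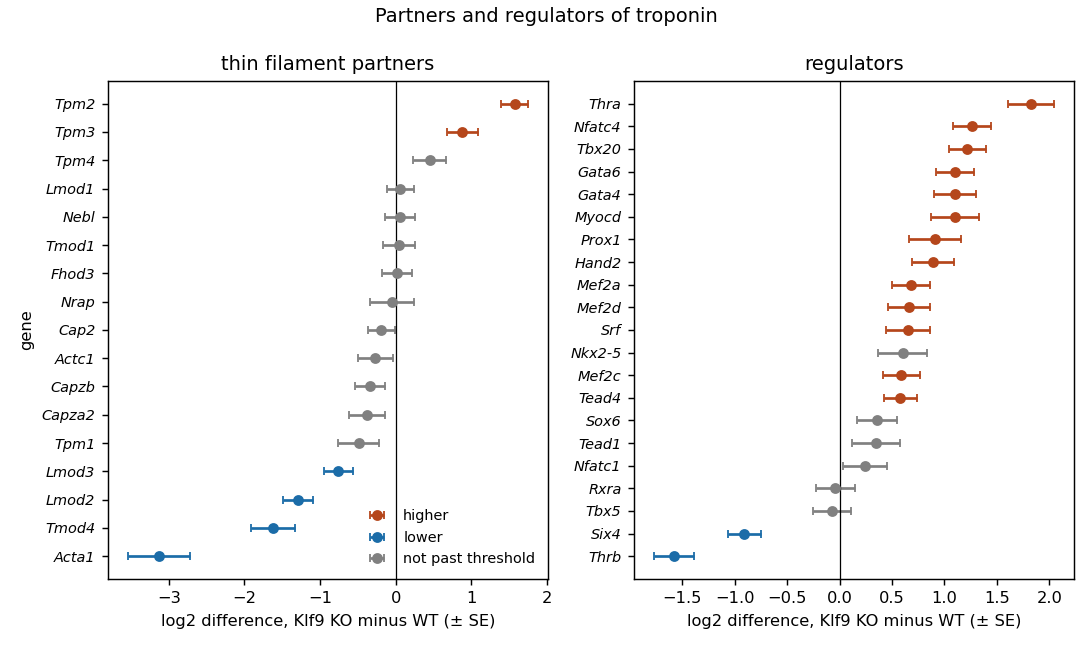
Fitted log2 difference, Klf9 KO minus WT, with its SE for tested thin filament partners and for regulators of troponin genes, coloured by the limma call. Tpm2 and Tpm3 rose and Acta1, Tmod4, Lmod2 and Lmod3 fell among the partners, and 13 of 21 regulators rose.

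Among transcription factors known to act on troponin or other muscle genes, thyroid hormone receptors alpha and beta went in opposite directions. Of 21 tested regulators 13 rose, 2 fell and 6 were not called, beside 27.7% of all tested genes higher and 17.0% lower. The median difference of the regulators was 0.65. Thra, the thyroid hormone receptor alpha, rose from 34.8 and 24.2 to 99.0 and 113, and Nfatc4 from 2.10 and 1.67 to 5.51 and 6.25. Thrb, the receptor beta, fell from 4.81 and 4.99 to 1.29 and 0.71. Six4, a homeobox factor, fell from 1.39 and 1.86 to 0.45 and 0.33, and it entered the fit only through the WT libraries. Gata4 (22.6 and 17.3 against 41.0 and 46.3) and the MEF2 genes Mef2a, Mef2c and Mef2d were among those that rose, though none of the 3 MEF2 genes passed without Klf9 KO-1 or without Klf9 KO-2. Their log2 differences with all libraries, without Klf9 KO-1 and without Klf9 KO-2 were 0.68, 0.59 and 0.76 for Mef2a, 0.59, 0.52 and 0.67 for Mef2c, and 0.66, 0.68 and 0.65 for Mef2d. After RLE scaling Mef2c and Mef2d did not pass (0.46 and 0.51). Sox6, a repressor of slow muscle genes, did not pass (3.22 and 2.19 against 3.91 and 3.54). The count that rose was 10 after RLE scaling, beside 2617 of all 12135 tested genes. It also moved when a library was left out, as did the counts over all genes.

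Most genes on a list of kinases, phosphatases and other signalling genes around troponin did not pass. Not all of them act on troponin itself. Most of all tested genes did not pass either (27.7% higher and 17.0% lower). Of 17 tested, 2 rose, 0 fell (limma; 1 fell without WT-1 and 2 without WT-2) and 15 were not called, at a median of 0.22. Pde5a, which degrades cyclic GMP, rose from 1.39 and 1.07 to 4.71 and 4.47, and Ppp1ca, a catalytic subunit of protein phosphatase 1, from 150 and 146 to 269 and 295. Tnni3k, a kinase named for its interaction with cardiac troponin I, stood at 39.2 and 40.5 in WT and at 40.1 and 37.6 in Klf9 KO. Ppp1ca did not pass without Klf9 KO-1 or without Klf9 KO-2, though its log2 difference was 0.99 and 0.86 there, against 0.92 with all libraries. The counts of this list moved when a library was left out, as did those over all genes.

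A list of contractile and natriuretic genes that change between fetal, stressed and adult hearts held 14 tested genes, among them genes of the adult heart such as Atp2a2, Myh6 and Mybpc3. Of these 14, 5 rose, 4 fell and 5 were not called, at a median of 0.49, beside 27.7% of all tested genes higher and 17.0% lower. Acta2, smooth muscle actin, rose from 89.7 and 74.6 to 255 and 358. Myl4, the atrial and fetal light chain, rose from 1.79 and 2.0 to 5.61 and 7.75. Myl7, also among those that rose (0.30 and 0.20 against 1.31 and 2.18), entered the fit only through the Klf9 KO libraries. Nppa, atrial natriuretic peptide, fell from 232 and 195 to 93.8 and 134, as did Acta1. Nppa did not pass without Klf9 KO-1 (log2 difference -0.66, against -0.92 with all libraries). The count that fell was 1 without Klf9 KO-1 and 2 without Klf9 KO-2.

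Markers of other tissues were read because Tnni1 and Tnnt1 are also genes of slow skeletal muscle, and because in whole tissue fewer cells of a type and less RNA per cell cannot be told apart. The calls on every marker list stand beside 27.7% of all tested genes higher and 17.0% lower. Counts without 1 library or after RLE scaling do not, since the counts over all genes moved there too. The defining heart muscle markers were present: the 12 genes summed to between 36897 and 42981 per library, 0 rose (limma; 4 rose without WT-1 and 2 without WT-2) and 2 fell. Those were Mb, which stores oxygen (8544 and 12678 against 4224 and 3828), and Ckmt2, the mitochondrial creatine kinase of muscle (1369 and 2234 against 442 and 304). Mb did not pass without Klf9 KO-1 or without Klf9 KO-2, at log2 differences of -1.44 and -1.30 against -1.37 with all libraries, and 4 markers fell after RLE scaling and without WT-1. Myl2, the ventricular light chain, was not called (9221 and 11020 against 14269 and 14274).

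Of 16 fast skeletal markers, 5 were tested, 1 rose and 2 fell. The skeletal myosins Myh1, Myh2 and Myh4 stood between 0.01 and 0.04 in all 4 libraries, and Myod1 at 0.01 in both Klf9 KO libraries. Myh3 (0.01 and 0.01 in WT, 0.06 and 0.09 in Klf9 KO) and Myh8 (0.06 and 0.01 against 0.37 and 0.36) were higher in Klf9 KO. Both were too low to be tested. The marker that rose was Casq1 (5.88 and 2.47 against 13.6 and 12.7). Myl1, a light chain of fast muscle, fell from 61.3 and 103 to 3.46 and 3.95. Cacna1s also fell (5.75 and 2.74 against 0.91 and 0.40), and it entered the fit only through the WT libraries. The summed level of that list was 1646 and 1571 in WT and 1635 and 1582 in Klf9 KO, nearly all of it Ckm, which the heart also expresses. Of 10 slow muscle markers, 9 were tested, 4 rose (Myh7, Myh7b, Myl6b and Tpm3) and 2 fell (Myoz2 and Atp2a2). Without Klf9 KO-2, 2 rose and 0 fell, and 0 fell without Klf9 KO-1. Myh7, the slow myosin heavy chain, stood at 49.2 and 32.4 against 93.0 and 219, and did not pass without either WT library in turn (log2 differences 2.11 and 1.52, against 1.81 with all libraries). Mybpc1, the slow skeletal myosin binding protein, stood between 0.01 and 0.06. The slow list summed to 18560 and 20813 in WT and to 23836 and 23291 in Klf9 KO, most of it Myl2 and Myl3, which are also the light chains of the ventricle.

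Atrial markers divided, with 4 of 8 tested genes that rose and 3 that fell (1 without Klf9 KO-1, 2 without Klf9 KO-2). The summed level of the 11 genes was 287 and 247 in WT and 135 and 182 in Klf9 KO, most of it Nppa. Sln stood at 0.14 or less in all 4 libraries. Of the atrial markers that rose, Myl7 (0.30 and 0.20 in WT) entered the fit only through the Klf9 KO libraries. Dkk3 (1.36 and 0.74 in WT) also needed the Klf9 KO libraries to pass the filter. Cell cycle genes were also higher in Klf9 KO: all 20 rose, with a median of 2.84, beside 27.7% of all tested genes higher. Of the 20, only Mki67, Top2a, Ccna2, Rrm2, Mcm2, Mcm3, Mcm6 and Pcna reached a level of 1 in both WT libraries. The others, such as Cdk1 (0.44 and 0.74 in WT) and Plk1 (0.6 and 0.61 in WT), needed the Klf9 KO libraries to enter the fit. The count of 20 is therefore a description only. The summed level of the 20 genes went from 39.6 and 50.5 to 268 and 359. Among them Mki67 rose from 1.03 and 1.16 to 17.0 and 20.8, and Rrm2, a subunit of ribonucleotide reductase, from 1.60 and 1.86 to 25.4 and 26.9.

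Of 7 smooth muscle markers 5 rose (2 after RLE scaling, 3 without Klf9 KO-1, 2 without Klf9 KO-2), with a summed level of 181 and 140 in WT and 425 and 538 in Klf9 KO. Smtn among them rose from 67.4 and 45.0 to 138 and 142. Of 8 fibroblast markers 4 rose and 1 fell (0 fell without Klf9 KO-2, limma), and the list summed to 455 and 625 against 1099 and 1165. There the collagen gene Col1a1 rose from 67.1 and 32.0 to 342 and 422, while Dcn fell from 221 and 429 to 145 and 131. Of 8 endothelial markers 3 rose, Cdh5 among them (103 and 97.0 against 177 and 185), but 0 passed in limma without Klf9 KO-1 or without Klf9 KO-2. The log2 differences with all libraries, without Klf9 KO-1 and without Klf9 KO-2 were 0.85, 0.88 and 0.82 for Cdh5, 0.76, 0.83 and 0.68 for Egfl7, and 0.72, 0.68 and 0.76 for Tie1. The endothelial list summed to 433 and 424 in WT and to 547 and 562 in Klf9 KO. Of 8 macrophage markers 7 fell, among them Lyz2 (71.9 and 169 against 14.8 and 15.5) and C1qa (55.5 and 74.0 against 16.3 and 15.7), with sums of 205 and 350 against 58.5 and 58.5. Of the macrophage markers, Cd163 (4.88 and 9.01 against 0.39 and 0.34) also fell, and it entered the fit only through the WT libraries. The part of these cell types and of the cell cycle genes in the troponin values was not tested.

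The profiles closest to those of the 2 main troponin I genes were found by the root mean square difference of centred log2(value + 1) over the 4 libraries, among tested genes that are not predicted. This distance is not scaled by the size of a profile, so for Tnni1 it mostly follows the difference between the groups. That difference chose the family, and Tnni1 ranked 1 in it, so nothing is read from how far other genes lie from Tnni1. No gene came within 1 of Tnni1. The closest was Rpl34-ps1 at 1.22 (0.01 in both WT libraries, 136 and 147 in Klf9 KO), which entered the fit only through the Klf9 KO libraries. It is a pseudogene whose reads may come from near-identical ribosomal protein copies. Igf2 followed at 2.0 and the potassium channel subunit Kcne1 at 2.03. The closest to Tnni3 were Insl3 at 0.00724 (6.04 and 8.43 against 3.92 and 3.96), Zfyve21 at 0.00923 and Ptprc at 0.0102 (1.31 and 2.16 against 0.61 and 0.66). The added 1 shrinks the differences of low genes such as Ptprc, so this closeness does not mean ratios of the same size. Among the troponins, Tnnt1 was nearest to Tnni1, at 3.94, and Tnnt2 nearest to Tnni3, at 0.164. With 4 libraries such closeness rests on few numbers and is a description only.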

How the data were processed

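RNA of hearts was sequenced in 2 wild-type and 2 Klf9 knockout libraries; groups and replicate numbers come from the sample titles. The authors deposited 1 table of comparisons. Per the file headers it holds a log2 ratio and a Poisson p-value for each of the 4 pairs of libraries, and a group log2 ratio whose p-value and q-value come from DEGseq. The deposited false discovery rate was read as a score and not used. The aligner, build, strand handling and depth are not given in the sources used here. Members, gene lists and tests were chosen with earlier results of these data known.

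Levels were recovered as the smallest whole numbers that give all ratios of a gene (17485 genes resolved), times an assumed step of 0.01. A factor common to a gene's 4 levels is lost in an expected 7.61% of genes. The ratios of such a gene stay intact, and its level and shares come out too low. Reads implied by the Poisson p-values rose with the longest coding transcript of GENCODE M21 (slope 0.889 of log2 reads per unit of value on log2 length, r = 0.787 across 5333 genes in WT-1; genes are not independent replicates), so values were read as per length. For Tnnc1 and Tnnt2 the reads implied directly (27220 and 53828) were below those from level and length (35989 and 79716), and for Tnni3 no such check could be made, which bears on the troponin I shares.

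The fit used limma 3.58.1 (trend, robust; R 4.3.3) on log2(value + 1), which understates changes of low genes. It took genes that reached 1 in 2 or more libraries. Group was its single term, and p-values were adjusted by Benjamini-Hochberg over all tested genes with a threshold of 0.05. The code was tested on simulated data. Intervals and read estimates cover counting error only. Named by rule were the members, up to 2 genes per direction of each pathway list by p, the 2 highest of each marker list, the 3 closest profiles and the nearest neighbours. Other list genes, such as Tpm1, Actc1, Gata4, the MEF2 genes, Sox6, Tnni3k and Ckmt2, were named after their values were seen, as were Ddx3y, Eif2s3y and Uty. Alternatives were other scalings, pseudocount, filter, moderation, a replicate block and omission of each library. The fast skeletal list held 18 genes, of which Myog and Pax7 had no value among the 17485 genes and were not analysed here. One regulator of the lists is not reported here, and the regulator counts leave it out. Python 3.11.15, numpy 2.4.6, pandas 2.3.3, scipy 1.17.1 and matplotlib 3.10.9 were used.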

Additional observations from a re-analysis of the deposited data

How the results depend on the processing

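With 2 libraries per group, leaving out 1 library moved counts most. Genes higher in Klf9 KO numbered 1859 to 4327 and genes lower 1100 to 3261 over the 4 omissions; of these, without Klf9 KO-1 (2195 and 1247), without Klf9 KO-2 (1859 and 1100) and without WT-1 (3261 lower) moved by over 1.5 times. Of the troponin genes, 3 were higher in the limma fit under every alternative that kept all libraries, except without the filter on low values, where Tnni2 did not pass. The number lower was 0 without the filter and 0 with non-robust moderation (limma, 1 at an unadjusted p below 0.05 in both). The cause was not tested. Over the omissions the log2 difference of Tnni3 ran from -0.95 to -0.51. These member counts are a description only and lend no support, since the same contrast chose the family. Tnni1 also entered the fit only through the Klf9 KO libraries. Of 70 log2 differences of the 8 members under alternatives, 0 changed the sign of a called value and 5 moved by more than 1 SD: Tnni1 (12.22 with a pseudocount of 0.1, 13.17 in the authors' deposited table), Tnni2 (1.21 and 1.59 likewise) and Tnnc1 (-0.32 after RLE scaling). The mean Tnni1 share of troponin I ran from 0.000196% to 0.00423% in WT and from 20.0% to 27.1% in Klf9 KO over the omissions, each end being the share of 1 library. Of 260 counts of fixed lists, 41 moved by over 1.5 times.

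Adding the replicate number as a replicate block gave 3514 higher and 2275 lower genes. Same-numbered libraries did not deviate together (correlation of deviations -0.0355 over tested genes), so the numbers were not taken to pair the samples.

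Reads behind Tnni1, Tnnc2, Tnnt3 and Tnni2 in WT were few (estimated at 0.106 to 16.8 per library), so depth limits their ratios.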
